A study of Mus musculus with 13 samples.

Results

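Carriers for sugars, amino acids and monocarboxylates were measured in EPLMs of BCS and WT mice. EPLMs (early progenitors with lymphoid and myeloid potential) are bone marrow cells that express CD93, B220 and c-kit, lack NK1.1, and stand before commitment to the B lineage. The carriers were chosen by gene symbol, as the genes of the Slc1, Slc2, Slc3, Slc5, Slc6, Slc7, Slc16, Slc38 and Slc43 families, and each gene was read by the probe set selected on its mean intensity over both genotypes, the brightest. This gave 96 of the 18193 genes with a probe set of their own, measured by 186 probe sets. Of the 96 symbols, 93 name carriers, and 3 name neighboring or related transcripts (Slc2a4rg-ps, Slc6a19os and Slc7a6os). For brevity all 96 are called carriers below. The families were proposed after the rise of Slc5a9 in these arrays was known, so the values of Slc5a9 are given as a description without a test, and the tests concern the other 95 genes.

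BCS mice carried a transgene for OBF1, a coactivator that acts with the Oct factors at octamer sites. The transgene held an HA-tagged human cDNA of the nuclear p34 isoform under the murine Eμ enhancer and an immunoglobulin VH promoter, which are active in B lineage cells from early stages on. Of several transgenic lines, the one used for the arrays, and where its transgene lies in the genome, are not given in the sources used here. WT mice were littermates without the transgene, and both genotypes shared the B6CF1 x C57BL/6 background and an age of 7 weeks. The 3 BCS and 3 WT mice gave 1 Affymetrix mouse GeneChip each, and the 7 arrays of large preB cells from the same study were not used.

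Carriers of these families move small nutrients that do not cross the membrane unaided. The Slc2 proteins let glucose and other hexoses pass down their gradient, while the Slc5 proteins draw sugars, inositol and other solutes in with sodium. Amino acids enter through sodium-coupled carriers (Slc1, Slc6, Slc38), through exchangers of the Slc7 family, several of which need a heavy chain of the Slc3 family to reach the membrane, and through the facilitative Slc43 carriers. The Slc16 proteins carry lactate, pyruvate and related acids with a proton, or, for some members, aromatic amino acids and other compounds. Lymphocytes raise the uptake of glucose and amino acids when they grow and divide, and pre-B cells are known for strict control of glucose use.

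All 6 arrays had a median intensity of about 20, and an intensity at or below it carried little signal over background. Among all 18193 genes, 573 (3.15%) were higher and 855 (4.7%) were lower in BCS EPLMs with a limma adjusted p under 0.05, together 1428 (7.85%). Pou2af1, the mouse gene of OBF1, had intensities of 10784, 10858 and 10323 in BCS EPLMs, against 6278, 7250 and 3400 in WT EPLMs. Whether its probe set reads the human cDNA is not known. The cell surface genes of the gate were present in every array, with Kit between 464 and 501 in BCS EPLMs and between 460 and 511 in WT EPLMs, while Ptprc (B220) and Flt3 were lower, with log2 changes of -0.40 and -1.22 (limma adjusted p = 0.0101 and 0.00065). Some markers of other cells fell as well. The summed intensity of 13 genes of plasmacytoid dendritic cells, 11 of which fell, was 50404 to 67259 in BCS EPLMs and 104318 to 116168 in WT EPLMs. That of 10 natural killer cell genes, 2 of which fell, was 1485 to 4288 in BCS EPLMs and 8278 to 14986 in WT EPLMs, but without Klrd1, the gene with the highest intensities among them, the sums were 398 to 2982 in BCS EPLMs and 1377 to 6876 in WT EPLMs and overlapped. That of 8 erythroid and megakaryocyte genes was 13064 to 15265 in BCS EPLMs and 22795 to 23630 in WT EPLMs, nearly all of it from the 1 gene that fell, Tfrc, which dividing cells use as well, and without it 222 to 250 in BCS EPLMs and 250 to 3325 in WT EPLMs. For myeloid cells 1 of 10 genes fell, Csf1r, and 9 had a lower mean in BCS EPLMs. The sums, 8054 to 48762 in BCS EPLMs and 22747 to 72340 in WT EPLMs, overlapped, with S100a8 the largest part. For T cells 1 of 5 genes fell, Cd8a, with sums of 107 to 131 in BCS EPLMs and 186 to 458 in WT EPLMs. Without Cd8a the sums were 80.1 to 112 in BCS EPLMs and 87.9 to 233 in WT EPLMs and overlapped. The part of these cells in the carrier values was not tested, and in sorted bulk RNA fewer cells of a type and less RNA per cell cannot be told apart.

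The share of the carriers that changed was near that of all genes. Of the 95 genes, 3 rose (3.16%) and 4 fell (4.21%), close to the 3.15% and 4.7% of all genes, and the 7 changed genes made up 7.37% of the 95, against 7.85% of all genes. The median log2 change, BCS minus WT, was -0.02 over the 95 genes and 0.01 over all genes, and 87 of the 95 lay within 0.5 of 0. At an unadjusted p under 0.05 from limma, 18 of the 95 passed (18.9%), against 23% of all genes. Many of the carriers gave little signal in EPLMs of either genotype. Only 30 of the 95 were above the array median on all 6 arrays, 7 on some of them and 58 on none, with a highest intensity of 18.4 in the last set. Of all 96 genes 31.2% were above the array median on all 6 arrays, against 54.4% of all genes. Slc5a9 itself, whose rise was known before these families were proposed, was above the array median on every BCS array and on no WT array.

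**Figure D1:**
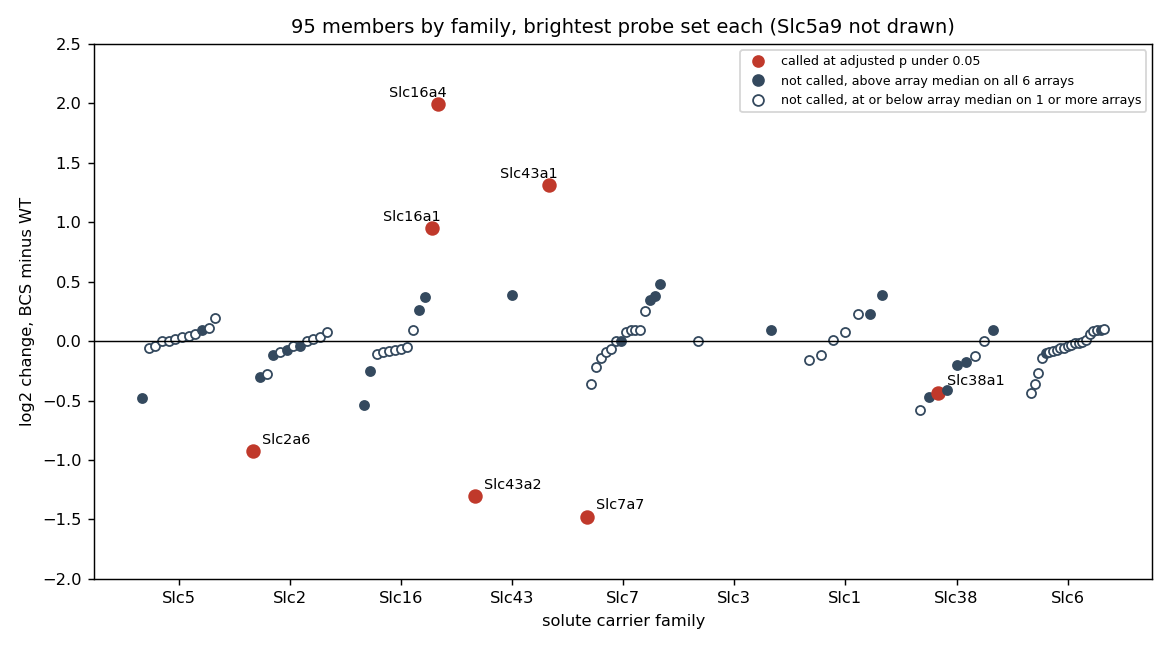
Log2 change of intensity, BCS minus WT, of the 95 carrier genes other than Slc5a9, by family, with 1 point for each gene at its brightest probe set. Red points passed an adjusted p under 0.05, dark points are other genes above the array median on all 6 arrays, and open points are the rest. Most points lie within 0.5 of 0, and the 7 that passed are spread over the Slc2, Slc7, Slc16, Slc38 and Slc43 families.

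Slc5a9 encodes a sodium-coupled sugar carrier, known in humans to take mannose, fructose and glucose and best known from intestine and kidney. Its brightest probe set had intensities of 7154, 9240 and 1697 in the 3 BCS mice, against 9.81, 13.9 and 15.8 in the 3 WT mice. All 3 BCS values lay far above the array median of about 20 and all 3 WT values below it. The means were 6031 ± 3895 in BCS EPLMs and 13.2 ± 3.05 in WT EPLMs (SD, n = 3 each), a log2 change of 8.44, or 7.91 with every value below the array median set to that median.

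Another 3 probe sets carry the Slc5a9 symbol, and each was high in all BCS mice and low in all WT mice. The second had 1338, 2991 and 338 in BCS EPLMs against 16.4, 16.4 and 15.3 in WT EPLMs, a log2 change of 6.02, or 5.79 with the floor at the array median. The third had 1627, 1760 and 110 in BCS EPLMs against 9.54, 11.4 and 9.55 in WT EPLMs, a log2 change of 5.94, or 5.09 with the floor. The fourth had 547, 1044 and 59.7 in BCS EPLMs against 6.97, 9.53 and 7.92 in WT EPLMs, a log2 change of 5.17, or 4.02 with the floor. BCS mouse 3 was the lowest of the BCS mice on every one of these 4 probe sets. Against the mean log2 value of BCS mice 1 and 2, it differed by -2.26, -2.56, -3.93 and -3.64 on the log2 scale, from the brightest probe set to the dimmest. Without this mouse the log2 change of the brightest probe set was 9.19.

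The spread among BCS mice was wider than in the other carriers of these families with signal on all 6 arrays. The log2 SD over the 3 BCS mice was 1.32 for Slc5a9, while over the carriers above the array median on all 6 arrays its median was 0.15 and its highest value 0.46. A like spread was present in Slc15a2, a peptide carrier gene of another family, with 1874, 834 and 288 in BCS EPLMs and 3452, 1868 and 3465 in WT EPLMs and a log2 SD over the BCS mice of 1.35.

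**Figure D2:**
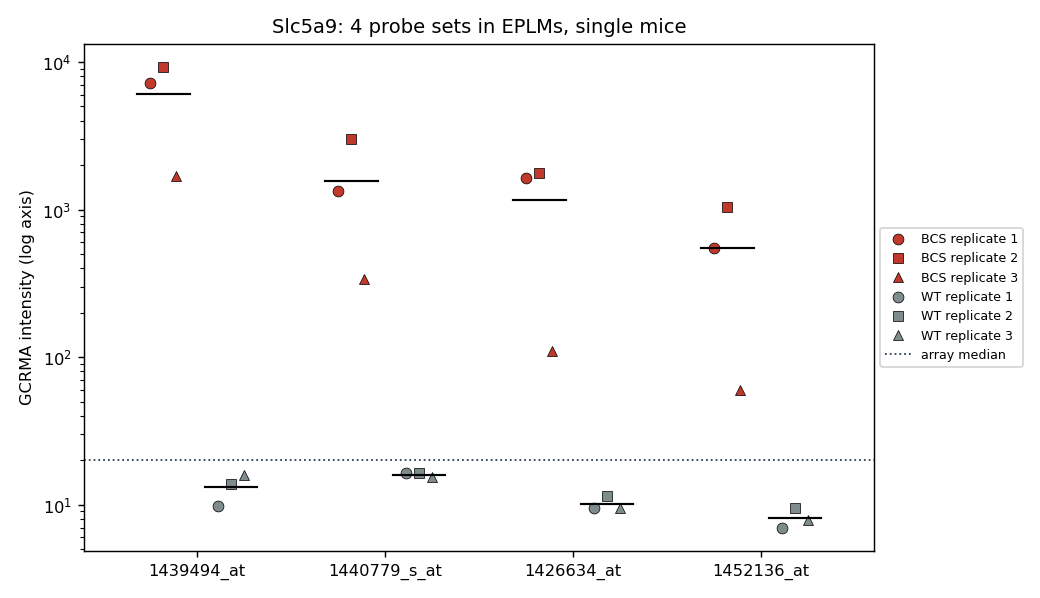
Intensity (log axis) of the 4 Slc5a9 probe sets in each BCS mouse (left) and WT mouse (right), with black bars for the group means and the array median of about 20 as a dotted line. On each probe set the 3 BCS values lie above the line and the 3 WT values below it, and BCS mouse 3 is the lowest BCS value.

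Genes that lie next to Slc5a9 on chromosome 4 were read as well, a choice made after the values of Slc5a9 had been seen. They were the 5 nearest measured genes on each side in the RefSeq gene order, and 3 of these 10 were higher in BCS EPLMs (3.15% of all genes were), none lower and 7 did not pass an adjusted p under 0.05, with 5 of the 10 below the array median on all arrays. Spata6, the next gene and best known for its role in sperm formation, had intensities of 2850, 2948 and 2763 in BCS EPLMs and 227, 252 and 214 in WT EPLMs, a log2 change of 3.63 (SE, the standard error, 0.13, limma adjusted p = 6.74e-06). Bend5, the gene 2 places away and a member of the BEN domain family of DNA-binding proteins, had 503, 524 and 523 in BCS EPLMs and 204, 266 and 237 in WT EPLMs, a log2 change of 1.14 (SE 0.16, limma adjusted p = 0.00411). Neither gene was lower in BCS mouse 3 the way Slc5a9 was. The third that rose, the forkhead gene Foxd2, lies 13 genes away on the other side and stayed near the array median, with 58.2, 35.9 and 42.4 in BCS EPLMs against 21.4, 25.6 and 18.1 in WT EPLMs (log2 change 1.02, SE 0.21, limma adjusted p = 0.0258). Cmpk1, the nucleoside monophosphate kinase gene 15 places away on that side, was above the array median on all arrays and had a log2 change of 0.09 (limma adjusted p = 0.408).

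**Figure D3:**
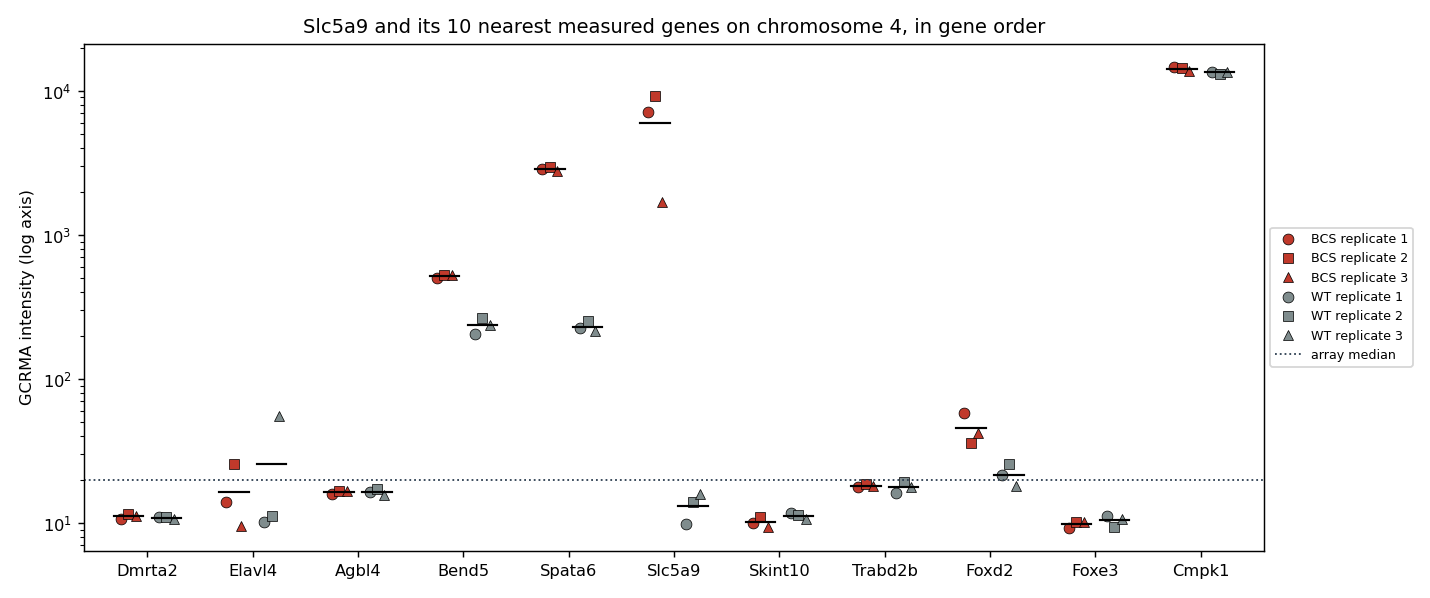
Intensity (log axis) of Slc5a9 and of the 5 nearest measured genes on each side of it on chromosome 4, in gene order, in 3 BCS mice (left of each pair) and 3 WT mice (right of each pair), with black bars for the group means and the array median as a dotted line. Slc5a9, Spata6 and Bend5 lie next to one another with all BCS values above all WT values.

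Among the other carriers, 3 rose, namely Slc16a1, Slc16a4 and Slc43a1. RefSeq promoter windows (GRCm38.p6), from 250 bases before to 50 bases after the start site, were read for them, since OBF1 acts at the octamer atgcaaat. Neither ATGCAAAT nor its reverse complement ATTTGCAT is in these 3 windows, which says only that those letters are not in them. They lie at chr3:104638414-104638713 on the plus strand, chr3:107290980-107291279 on the plus strand and chr2:84840073-84840372 on the plus strand. They are followed by the window of the cystine carrier gene Slc7a11 at chr3:50443564-50443863 on the minus strand, which holds the octamer in the reverse direction at position -49 from the start site, in capitals.
Slc16a1: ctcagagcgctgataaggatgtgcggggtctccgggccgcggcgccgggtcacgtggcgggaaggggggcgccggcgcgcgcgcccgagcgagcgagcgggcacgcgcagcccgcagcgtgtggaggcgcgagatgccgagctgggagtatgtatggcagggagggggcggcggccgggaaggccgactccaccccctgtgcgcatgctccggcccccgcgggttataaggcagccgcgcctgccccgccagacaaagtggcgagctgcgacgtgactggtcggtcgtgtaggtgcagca
Slc16a4: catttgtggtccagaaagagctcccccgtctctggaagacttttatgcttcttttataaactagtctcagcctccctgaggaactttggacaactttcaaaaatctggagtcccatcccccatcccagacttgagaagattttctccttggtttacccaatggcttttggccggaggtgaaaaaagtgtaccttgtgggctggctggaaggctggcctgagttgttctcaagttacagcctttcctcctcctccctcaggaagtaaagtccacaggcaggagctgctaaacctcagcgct
Slc43a1: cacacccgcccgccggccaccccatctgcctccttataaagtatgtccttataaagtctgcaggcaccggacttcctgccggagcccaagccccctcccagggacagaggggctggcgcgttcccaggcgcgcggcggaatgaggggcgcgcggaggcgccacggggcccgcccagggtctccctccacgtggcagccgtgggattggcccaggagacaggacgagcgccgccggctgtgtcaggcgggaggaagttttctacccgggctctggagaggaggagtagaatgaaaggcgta
Slc7a11: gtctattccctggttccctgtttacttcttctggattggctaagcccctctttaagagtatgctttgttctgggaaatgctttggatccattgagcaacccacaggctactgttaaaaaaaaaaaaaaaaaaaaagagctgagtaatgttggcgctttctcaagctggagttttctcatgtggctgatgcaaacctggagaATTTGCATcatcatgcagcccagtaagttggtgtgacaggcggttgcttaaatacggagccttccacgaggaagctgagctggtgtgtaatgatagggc

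The octamer, searched on both strands, was present in the windows of 2 of 70 carrier genes (2.86%), against 532 of 27025 genes (1.97%) with a window in the table. The other carrier gene with a match was Slc6a12, at position -180. No window was available for Slc5a9, so the letters were not read for it. Slc7a11 had intensities below the array median in both genotypes and a log2 change of 0.09 (limma adjusted p = 0.687). A match is a description of the letters and not a binding site.

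The 2 monocarboxylate carriers that rose belong to the Slc16 family. Slc16a1 encodes MCT1, which carries lactate and pyruvate across the membrane together with a proton. Its intensities were 16181, 18077 and 15266 in BCS EPLMs and 9956, 8318 and 7489 in WT EPLMs, a log2 change of 0.95 (SE 0.11, limma adjusted p = 0.00113), with group medians less than 2-fold apart, short of the fold minimum of the study's methods. Its second probe set was near the array median (18.1 ± 1.64 in BCS EPLMs and 13.2 ± 2.05 in WT EPLMs, SD, n = 3 each). Slc16a4 encodes MCT5, whose substrates are not well known. It had 114, 192 and 199 in BCS EPLMs and 55.9, 27.7 and 41.7 in WT EPLMs, a log2 change of 2.0 (SE 0.30, limma adjusted p = 0.00583), the largest rise among the 95 genes. With the floor at the array median applied to all probe sets its log2 change was 2.02, and its call was lost (limma adjusted p = 0.0954). Its second probe set was below the array median in both genotypes and had a log2 change of 0.01. For both genes every BCS mouse was above every WT mouse on the brighter probe set.

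The rest of the Slc16 family did not pass the test. Of its 13 genes, 6 were above the array median on all arrays and 7 on none. Slc16a3, which encodes the lactate exporter MCT4 of strongly glycolytic cells, was below the array median (log2 change -0.05, limma adjusted p = 0.884). Slc16a6 had 500, 582 and 851 in BCS EPLMs and 509, 454 and 490 in WT EPLMs, and Slc16a10, a carrier of aromatic amino acids, had a log2 change of -0.25 (limma adjusted p = 0.387 and 0.525). Slc16a7, which encodes the pyruvate carrier MCT2, had a log2 change of -0.54 (limma adjusted p = 0.185).

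In the Slc43 family 1 gene rose and 1 fell. Both Slc43a1 and Slc43a2 encode sodium-independent carriers of large neutral amino acids such as leucine, isoleucine, valine and phenylalanine, known as LAT3 and LAT4. Slc43a1 had intensities of 41.4, 39.7 and 33.2 in BCS EPLMs and 20.1, 13.4 and 11.6 in WT EPLMs, a log2 change of 1.31 (SE 0.20, limma adjusted p = 0.00651). Of the WT values 2 lay below the array median and 1 just above it, and with values below that median set to it the log2 change was 0.92. Slc43a2 had 568, 316 and 397 in BCS EPLMs and 1040, 972 and 1065 in WT EPLMs, a log2 change of -1.30 (SE 0.21, limma adjusted p = 0.00772). Its groups did not overlap on this probe set, but its other probe sets did not pass, with log2 changes of -0.26 and -0.14 (limma adjusted p = 0.552 and 0.708), and with the floor at the array median the log2 change was -1.31 and the call was lost (limma adjusted p = 0.0819). The third member, Slc43a3, known as a purine nucleobase carrier, had 3710, 3054 and 3402 in BCS EPLMs and 2659, 2556 and 2533 in WT EPLMs. Every BCS mouse was above every WT mouse, with a log2 change of 0.39 and an SE of 0.10, and the limma adjusted p of 0.0615 missed the threshold.

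**Figure D4:**
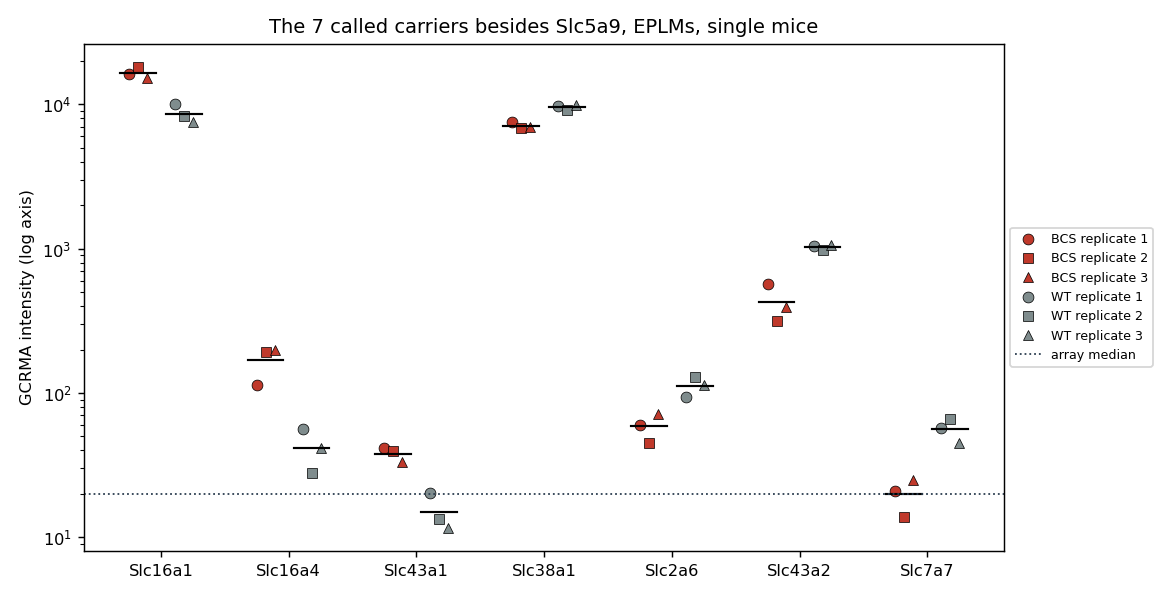
Intensity (log axis) of the 7 carriers that passed an adjusted p under 0.05, in 3 BCS mice (left of each pair) and 3 WT mice (right of each pair), each gene at its brightest probe set, with black bars for the group means and the array median as a dotted line. Slc16a1, Slc16a4 and Slc43a1 were higher in BCS EPLMs, and Slc43a2, Slc7a7, Slc38a1 and Slc2a6 were lower.

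Of the 16 genes with an Slc7 symbol, 1 changed. Slc7a7 encodes y+LAT1, which exports cationic amino acids in exchange for neutral ones and is known from kidney, intestine and macrophages. It had intensities of 20.9, 13.8 and 24.8 in BCS EPLMs and 57.6, 65.5 and 45.3 in WT EPLMs, a log2 change of -1.48 (SE 0.24, limma adjusted p = 0.00749). The BCS values lay around the array median, so the size of this fall depends on the background, and with the floor at the array median it was -1.35. Csf1r, the receptor gene of macrophages and their precursors, moved the same way (log2 change -2.40, limma adjusted p = 0.00211). It had 542, 356 and 805 in BCS EPLMs and 3145, 3535 and 2042 in WT EPLMs. Of the 10 myeloid genes read it was the only 1 that passed, and the other 9 did not. Not all of them followed it across the mice. BCS mouse 2 was the lowest BCS mouse for Slc7a7 and Csf1r. It was the highest BCS mouse for Mpo (2195), Lyz2 (5652) and S100a8 (26694), though the lowest for Itgam. Elane had a higher mean in BCS EPLMs. The part of myeloid cells in the Slc7a7 values was not tested.

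The widely used Slc7 carriers and their heavy chain did not pass. Slc7a5, the leucine carrier LAT1 of activated lymphocytes, had 1358, 2073 and 1952 in BCS EPLMs and 1373, 1206 and 1502 in WT EPLMs, with a log2 change of 0.38 (95% interval -0.01 to 0.78, limma adjusted p = 0.291). BCS mouse 1 lay within the WT values. Its partner Slc3a2, the heavy chain CD98, had 848, 993 and 1166 in BCS EPLMs and 939, 946 and 913 in WT EPLMs, a log2 change of 0.09 (95% interval -0.24 to 0.42). Slc7a1, the main carrier of arginine and lysine, had 7280, 7081 and 7295 in BCS EPLMs and 6711, 7098 and 7890 in WT EPLMs, with an interval of the log2 change from -0.17 to 0.17. Slc7a6 encodes the exchanger y+LAT2 and had 1604, 1944 and 1854 in BCS EPLMs against 1419, 1313 and 1507 in WT EPLMs, a log2 change of 0.35 (limma adjusted p = 0.159). Slc7a6os, named for its position on the opposite strand to Slc7a6, had a log2 change of 0.48 (limma adjusted p = 0.0761).

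Of the sodium-coupled Slc38 carriers, Slc38a1 fell. It encodes the glutamine carrier SNAT1 and had intensities of 7530, 6827 and 6923 in BCS EPLMs and 9737, 9178 and 9809 in WT EPLMs, a log2 change of -0.43 (SE 0.07, limma adjusted p = 0.00639), also short of that fold minimum. The genotypes did not overlap on this probe set. On the second probe set they did, with 880, 1355 and 959 in BCS EPLMs and 1609, 1225 and 993 in WT EPLMs (limma adjusted p = 0.608), and with the mean over both probe sets the call was lost. Slc38a2, which encodes the related SNAT2, had a log2 change of 0.09 (95% interval -0.05 to 0.24, limma adjusted p = 0.514).

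Slc38a9, a lysosomal arginine sensor that signals to mTORC1, was measured by 7 probe sets, and its probe sets disagreed on the call. The brightest had 1064, 1104 and 1055 in BCS EPLMs and 1215, 1446 and 1652 in WT EPLMs, a log2 change of -0.41 (SE 0.14, limma adjusted p = 0.147). All 7 had a lower mean in BCS EPLMs, and 2 of the 6 dimmer ones passed, with log2 changes of -0.71 and -0.62 (limma adjusted p = 0.0377 and 0.0489). These 2 were the only ones that passed among the 87 dimmer probe sets of genes other than Slc5a9. Of the 87, 24 were above the array median on all 6 arrays. Of all 45037 probe sets, brightest ones included, 1007 were higher and 1465 lower at the same threshold.

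No gene of the Slc1, Slc3, Slc5 or Slc6 families other than Slc5a9 passed. Slc1a5, the glutamine and neutral amino acid carrier ASCT2, had a log2 change of 0.39 (95% interval 0.06 to 0.71, limma adjusted p = 0.182). Slc6a6, the taurine carrier, had a log2 change of -0.10 (limma adjusted p = 0.736), and 17 of the 21 Slc6 genes, many of which serve neurotransmitters, were above the array median on no array. In the family of Slc5a9 itself, 9 of the 12 other genes were above the array median on no array, and the log2 changes ran from -0.48 to 0.19. The lowest was that of Slc5a3, a sodium-coupled inositol carrier, with 661, 577 and 554 in BCS EPLMs and 868, 727 and 913 in WT EPLMs. Every BCS mouse lay below every WT mouse, and the adjusted p of 0.115 from limma missed the threshold.

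Among the facilitative glucose carriers, Slc2a6 was lower. It encodes GLUT6, a carrier of leukocytes found on inner membranes, and had 59.9, 45.0 and 72.0 in BCS EPLMs and 93.5, 129 and 113 in WT EPLMs, a log2 change of -0.93 (SE 0.22, limma adjusted p = 0.0482). This call was lost whichever of the 6 arrays was left out, with adjusted p between 0.0515 and 0.162. The main glucose carriers of blood cells did not pass. Slc2a1 (GLUT1) had 1117, 1241 and 1046 in BCS EPLMs and 1094, 1174 and 1322 in WT EPLMs, and the 95% interval of its log2 change ran from -0.37 to 0.22. Slc2a3 (GLUT3) had 2553, 2228 and 2749 in BCS EPLMs and 2373, 3127 and 2704 in WT EPLMs, with an interval from -0.41 to 0.17. The genotypes overlapped for both.

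Genes that work beside these carriers were read from lists chosen by function, with earlier results of these data known. Of 10 partners and trafficking factors none rose and 2 fell, beside 3.15% and 4.7% of all genes, with a median log2 change of -0.06. Emb, which encodes the chaperone embigin of MCT2, had 1090, 1137 and 1188 in BCS EPLMs and 2713, 1838 and 2566 in WT EPLMs, a log2 change of -1.04 (SE 0.16, limma adjusted p = 0.00552). The chaperone of MCT1, basigin (Bsg), had 613, 611 and 632 in BCS EPLMs and 716, 576 and 622 in WT EPLMs, and did not pass (limma adjusted p = 0.929). The arrestin-domain gene Arrdc4, a regulator of glucose uptake, fell by 1.45 on the log2 scale (limma adjusted p = 0.0312), while its relative Txnip had a log2 change of -0.26 (limma adjusted p = 0.153).

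Of 22 related carriers from other families, 1 rose and 5 fell, beside 3.15% and 4.7% of all genes, with a median log2 change of -0.18. Slc45a4 rose by 0.71 on the log2 scale (limma adjusted p = 0.0289). The genes that fell were the amino acid carriers Slc36a1 (-0.75) and Slc36a4 (-0.98), Slc37a2 (-1.08) and Slc37a3 (-1.23) of the sugar phosphate carrier family, and Slc25a12 (-0.53), the mitochondrial aspartate and glutamate exchanger, with adjusted p between 0.00468 and 0.0487 from limma. Slc37a3 lay around the array median in BCS EPLMs, at 21.2, 17.7 and 16.4, against 42.7, 36.4 and 55.7 in WT EPLMs.

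Of 13 genes of the first steps after uptake, 1 rose and 2 fell, beside 3.15% and 4.7% of all genes. Ldhb encodes the lactate dehydrogenase subunit of tissues that oxidize lactate, and had 117, 70.0 and 92.3 in BCS EPLMs and 1336, 1425 and 2137 in WT EPLMs, a log2 change of -4.11 (SE 0.25, limma adjusted p = 6e-05). The other subunit gene, Ldha, had 4915, 7234 and 5720 in BCS EPLMs and 5255, 4899 and 4562 in WT EPLMs, with overlapping genotypes (limma adjusted p = 0.348). Bcat1, the cytosolic transaminase of branched-chain amino acids, had 504, 1102 and 787 in BCS EPLMs and 169, 236 and 96.2 in WT EPLMs, a log2 change of 2.27 (SE 0.36, limma adjusted p = 0.00763). Glul, which makes glutamine from glutamate, fell by 0.66 on the log2 scale (limma adjusted p = 0.0208). The hexokinase genes Hk1 and Hk2 had log2 changes of 0.15 and -0.40 and overlapping genotypes.

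Of 15 genes of the response to amino acid shortage, 3 rose and none fell, beside 3.15% and 4.7% of all genes. Trib3, a pseudokinase induced in that response, had 73.0, 89.5 and 77.6 in BCS EPLMs and 25.1, 42.3 and 24.1 in WT EPLMs, a log2 change of 1.40 (limma adjusted p = 0.00951). The serine and glycine synthesis genes Phgdh and Shmt2 rose by 0.38 and 0.70 on the log2 scale (limma adjusted p = 0.0206 and 0.0168). The regulator Atf4, the asparagine synthetase gene Asns and Ddit3 did not pass, with log2 changes of -0.02, 0.28 and -0.61. Of 22 genes of mTORC1 and its inputs, amino acid sensing included, 2 rose and 1 fell, beside the same shares of all genes. Rptor, the scaffold subunit of mTORC1, had 1946, 1631 and 1504 in BCS EPLMs and 631, 765 and 568 in WT EPLMs, a log2 change of 1.37 (SE 0.16, limma adjusted p = 0.00141). Rragd, a small GTPase that recruits mTORC1 to the lysosome, had 512, 823 and 499 in BCS EPLMs and 83.8, 285 and 60.8 in WT EPLMs, a log2 change of 2.38 (limma adjusted p = 0.0270). The kinase gene Mtor fell by 0.55 on the log2 scale (limma adjusted p = 0.0201).

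**Figure D5:**
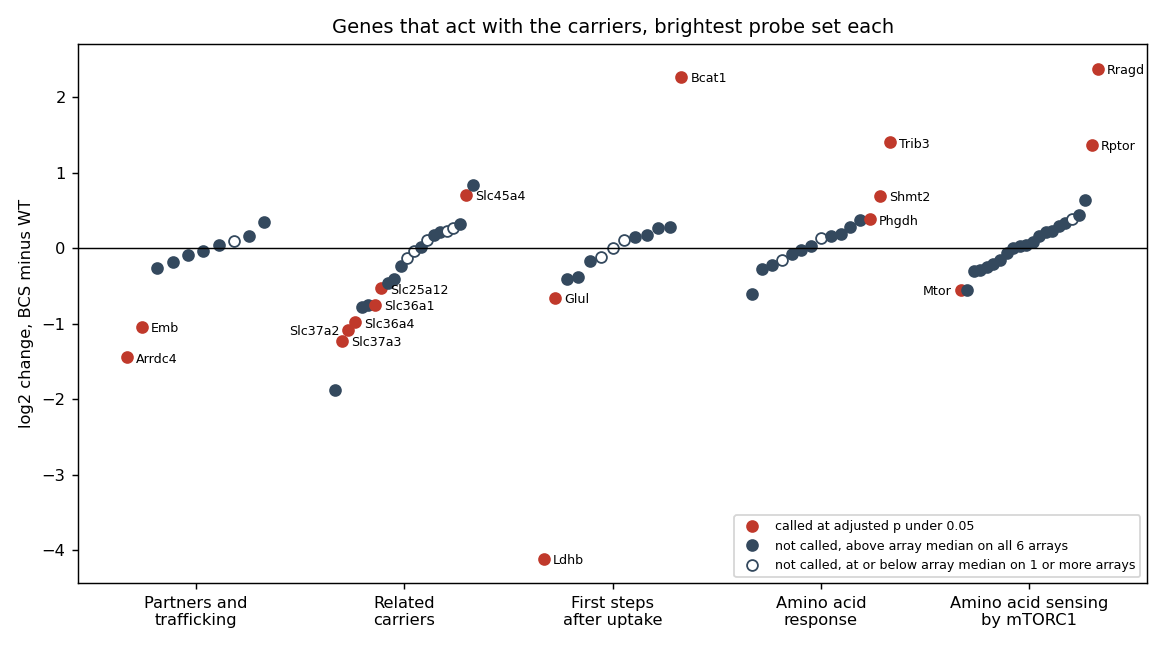
Log2 change of intensity, BCS minus WT, of the genes in 5 lists, 1 point for each gene. The lists hold partners, related carriers, first metabolic steps, amino acid response, and amino acid sensing with mTORC1 and its other inputs. Red points passed an adjusted p under 0.05, dark points are other genes above the array median on all 6 arrays and open points the rest, with Ldhb the lowest at -4.11 and Rragd the highest at 2.38.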

How the data were processed

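Each of the 6 arrays, Affymetrix mouse GeneChips, held EPLM RNA of a single mouse, 3 BCS and 3 WT. The study's methods state 2-cycle labeling and the labels of the arrays 1-cycle. The deposited values are intensities on a linear scale that the authors normalized with GCRMA (version not given), and on the 6 arrays their values at each rank agree within 6.47e-05 on the log2 scale. From them log2 of the intensity plus 1 was fitted over 45037 probe sets, without the 64 control features, with limma 3.58.1 in R 4.3.3 (lmFit, then eBayes with an intensity trend, statmod 1.5.0), for BCS minus WT without covariates, where the study's methods used Student's test. Benjamini-Hochberg adjustment of p ran over all of these probe sets, of which 34945 had 1 gene symbol in the platform annotation. A gene rose or fell at an adjusted p under 0.05. The fit was tested on simulated data. Levels were compared between mice and not between probe sets.

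The members and the gene lists were chosen with earlier results of these data known. Named were Slc5a9, every carrier that passed, 18 widely studied carriers, and genes whose probe sets disagreed, while others were named after their values were seen. Some genes of the lists are not reported here. Promoter windows are RefSeq's (GRCm38.p6). Alternatives were another variance model, weights, dropping dim probe sets, quantile normalization, centring, offsets, a floor, other probe set rules and thresholds, a replicate block and leaving out each array. No batch is named in the labels.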

Additional observations from a re-analysis of the deposited data

How the results depend on the processing

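The count of 7 changed carriers (3 higher, 4 lower) held with the same genes under eBayes without trend or with robust variances, array weights, quantile normalization and centring. The methods' t-test gave 0 after Benjamini-Hochberg adjustment (0 higher, 0 lower) (13 at an unadjusted p under 0.05, where limma had 18) and 4 at an unadjusted p under 0.01 with 2-fold medians (2 lower), where limma had 4. A floor at the array median gave 4 (2 lower) and lost Slc43a2, Slc16a4 and Slc2a6, and a 2-fold minimum of the medians gave 4 (2 lower) and lost Slc16a1, Slc38a1 and Slc2a6, as did the t-test with it. The filter on dim probe sets gave 5 higher, adding Slc43a3 and Slc7a6os. With the mean over probe sets Slc38a1 was lost and Slc43a3 and Slc38a9 were gained, and with the most variable probe set Slc38a1 was lost and Slc38a9 gained. Slc2a6 was also lost at an adjusted p under 0.01, with an offset of 16 and without any 1 array, which left 6 changed carriers. The median log2 change of the 95 carriers, -0.0153, was -0.0223 with array weights, -0.0568 with the dim filter, -0.00936 with the offset of 16, -2.15e-05 with the floor, 0.000925 with the mean over probe sets and -0.000848 with the most variable one, and ran from -0.024 to 0.000398 with each array left out. Over all genes the count of 1428 was 135 with the t-test adjusted, 503 at its unadjusted threshold, 520 with the floor, 648 at an adjusted p under 0.01, 672 with the 2-fold minimum, and 854, 940 and 851 without BCS replicate 2, BCS replicate 3 and WT replicate 3.

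Same-numbered arrays had deviations that correlated by -0.0327, 0.0494 and 0.0913, and differently numbered arrays by -0.222 to 0.16. With 3 mice per genotype these values cannot show whether the numbers pair the mice. The replicate block gave 6 changed carriers, without Slc2a6. Of the 21 carriers run under the alternatives, Slc5a9 included, none that had passed changed direction. The log2 change of Slc5a9 moved by more than its log2 SD over the BCS mice under 1 alternative. That was the mean over its probe sets, which gave a smaller rise. The neighbors and list genes were not run under the alternatives. The causes were not tested. With 3 mice per genotype, and 58 of 95 carriers above the array median on no array, the signal of many carriers was too low to say that they did not change.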
